A study of Mus musculus with 10 samples.

Results

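Interferon-stimulated genes are the genes that a cell switches on when it meets interferon, a signalling protein released after viral infection. Of 45 such genes listed here by symbol, leaving out the OAS enzymes and the antigen presentation genes, 39 had a probe set of their own among the 12384 genes that the array measured with one. Isg15, Tgtp1, Ifi203 and Ifi205 were measured only on probe sets shared with other genes, and Ddx58 and Xaf1 were matched to no probe set. The expression of these 6 is therefore not analysed here. Of the 39, 36 were bright enough to be tested, and Ifitm1, Mx1 and Sp100 were too dim. Zbp1 alone of the 36 passed this filter through 1 group: its mean log2(signal + 16) was 6.93 over all arrays and 6.67 without the H1093K arrays described next, under the filter level of 6.82. The rule goes by name, and the names were listed with earlier results of these data known. The cells were mouse embryonic fibroblasts, the connective tissue cells of embryos in culture, and their RNA was read on 10 Affymetrix arrays in 5 groups of 2. The cells of 4 groups shared the deletion of G9a, the lysine methyltransferase encoded by Ehmt2, which acts on histone H3 and also on itself. They had received FLAG-G9a with the K165A substitution (K165A), FLAG-G9a with the catalytic H1093K substitution (H1093K), wild type FLAG-G9a (WT) or an empty vector (delta). The other 2 arrays are titled only as deleted, with no vector named, and are called the arrays labelled deleted. The sources used here do not say whether a line was 1 clone or a pool, nor whether any culture was treated with interferon.

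Type I interferon binds a receptor that activates JAK kinases, and these phosphorylate transcription factors, STAT2 among them. With IRF9, STAT2 is part of a complex that binds a DNA element called the interferon-stimulated response element (ISRE), while the response to type II interferon runs through another element, the gamma-activated site (GAS). The proteins made in turn sense foreign nucleic acid, block translation or replication of viruses, attack the vacuoles of parasites, or damp the response down. Fibroblasts respond to both types of interferon, and some of these genes are also transcribed at a low level without it.

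Ehmt2 was checked first. Its signal was 704 and 725 in K165A, 461 and 494 in H1093K, 676 and 620.4 in WT, 1678 and 1749.7 in the arrays labelled deleted and 473 and 415 in delta. The arrays labelled deleted were thus the highest, and they are read here only by their title. Delta, whose cells carry the deletion, gave signal too, so this probe set alone cannot show which cells lacked G9a. It did not pass between H1093K and delta, with a log2 difference of 0.10 (-0.10 to 0.31), and H1093K lay below WT, with a log2 difference of -0.43. The trimmed mean signal was 500.1 to 500.2 on every array, and over all probe sets Pearson's r between the 2 arrays of each group was 0.984 to 0.989, a description only. Of 14 fibroblast markers 10 passed the filter on dim signals in this series, and the 14 together summed to between 50907 and 65908 on all arrays; those that changed are given with each comparison. Leukocytes express many interferon-stimulated genes strongly. Of 15 macrophage and leukocyte markers 4 passed the filter, and the signals of all 15 summed to 689 to 924 in K165A, 827 to 894 in H1093K, 875 to 922 in WT, 749 to 949 in the arrays labelled deleted and 951 to 958 in delta. Ptprc, the pan-leukocyte marker, averaged 17.2 to 27.7 over the groups. Of 8 endothelial markers 1 passed, and the 8 together summed to 245 to 369. Of 9 epithelial markers 4 passed, and all 9 summed to 1018 to 1171 in K165A, 2685 to 2925 in H1093K, 1140 to 1244 in WT, 4541 to 4673 in the arrays labelled deleted and 3841 to 4141 in delta. Epcam, a defining epithelial marker, averaged 26.2 or less in every group, but some keratins of the same list were bright. Krt7 averaged 2609 in delta and 1773 in H1093K, against 372 in K165A and 338 in WT. Krt18 averaged 568 and Krt8 129 in delta, while the arrays labelled deleted had 2071 and 1603. Whether these keratins came from epithelial cells was not tested.

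The promoters of many of these genes held the letters of the 2 DNA elements. RefSeq start sites on the mouse build GRCm38.p6 gave a window of 250 bases before to 50 bases after the start for 37 of the 45 genes. The ISRE core, searched on both strands as GAAA, any 2 bases and GAAA again, lay in the windows of 21 of these 37 genes (56.8%), against 1079 of 27025 genes in the whole table (3.99%). Among the 36 genes tested for expression it lay in 16 of the 29 with a window (55.2%). The GAS core, searched as TTC, any 3 bases and GAA, lay in 11 of the 37 (29.7%), against 9.55% of all genes, and 5 genes held both. A match is a description of letters, not a binding site. The stretches below are printed on the strand of the gene, 5′ to 3′, with the ISRE core in capitals, which reads as its reverse complement where the match is on the other strand. They are shown because these genes moved in opposite directions with wild type G9a. Ifit3 (chr19:34583348-34583441, plus strand), Ifit1 (chr19:34640760-34640838, plus strand) and Irgm1 (chr11:48871421-48871475, minus strand) were higher with wild type G9a than with empty vector.
Ifit3: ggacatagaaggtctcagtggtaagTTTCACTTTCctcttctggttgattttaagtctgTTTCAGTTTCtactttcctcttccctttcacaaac
Ifit1: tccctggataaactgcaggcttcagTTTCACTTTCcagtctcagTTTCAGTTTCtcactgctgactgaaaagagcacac
Irgm1: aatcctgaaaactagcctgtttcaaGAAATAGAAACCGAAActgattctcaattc
Trim30a (chr7:104465195-104465254, minus strand), Rsad2 (chr12:26456538-26456597, minus strand), Gbp3 (chr3:142559974-142560039, plus strand) and Gbp2 (chr3:142620579-142620638, plus strand) were lower.
Trim30a: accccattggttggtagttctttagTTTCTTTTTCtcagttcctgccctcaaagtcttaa
Rsad2: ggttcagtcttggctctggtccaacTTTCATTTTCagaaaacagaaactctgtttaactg
Gbp3: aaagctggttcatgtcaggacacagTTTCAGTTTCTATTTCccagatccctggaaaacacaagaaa
Gbp2: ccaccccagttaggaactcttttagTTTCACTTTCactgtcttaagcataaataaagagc
The core was present in both sets. In the comparison of WT with delta it lay in the windows of 3 of the 4 genes that rose, 5 of the 6 that fell and had a window, and 8 of the 19 that did not pass and had one. Ifih1 had its match after the start site, and no ISRE core was found in the windows of Ifit2 and Isg20, each of which held a GAS core.

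Cells given wild type G9a had one set of interferon-stimulated genes lower, and another higher, than cells given the empty vector. Compared with delta, 7 of the 36 genes tested fell in WT, 4 rose and 25 did not pass limma's threshold, an adjusted p of 0.05 over all 13575 probe sets tested. That is 30.6% of these genes, against 13.1% of all 7738 genes tested in either direction, 5.66% higher and 7.48% lower. Those that fell were Trim30a, Rsad2, Ifih1, Parp14, Gbp3, Gbp2 and Isg20, and those that rose were the 3 Ifit genes and Irgm1. The count of 11 became 7 without either WT array and 6 without delta replicate 1. The median log2 difference of the 36 was -0.12, beside -0.02 over all genes. In bulk RNA, fewer cells of a type and less RNA per cell cannot be told apart. Changes are given as differences of log2(signal + 16), with the fold on the same scale, and no label says that a group's arrays were grown as separate cultures, so the tests measure a spread that may be technical.

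The genes that rose encode proteins that bind foreign RNA or act at membranes. The Ifit proteins bind viral RNA and hold back its translation. Ifit3 had a signal of 3713 and 3438 in K165A, 2876 and 3100.4 in H1093K, 3370.0 and 3201 in WT, 744 and 736 in the arrays labelled deleted and 2118 and 2115 in delta. Both WT arrays lay above both delta arrays, and the arrays labelled deleted lay far below all others. The difference between WT and delta was 0.63 (95% interval 0.46 to 0.80, limma adjusted p = 0.000509), a 1.55-fold rise. Ifit2 had 1669 and 1699.9 in K165A, 1529 and 1561 in H1093K, 1485 and 1625 in WT, 497 and 572 in the arrays labelled deleted and 1066 and 1120.0 in delta. Its groups had the same order as those of Ifit3, again with WT and delta apart. It was higher in WT by 0.50 (95% interval 0.31 to 0.69, limma adjusted p = 0.00438). Ifit1 had 4758 and 4963 in K165A, 3931 and 4252 in H1093K, 4343 and 4633 in WT, 1670.3 and 1813 in the arrays labelled deleted and 3214 and 3819 in delta, with the 2 delta arrays further apart than the WT arrays. Its rise was the smallest of the family, 0.36 (95% interval 0.14 to 0.57, limma adjusted p = 0.0448). Irgm1, an immunity-related GTPase that restrains other GTPases of its family, had 3335 and 3074 in K165A, 2629 and 2716 in H1093K, 3092 and 3078 in WT, 1139 and 1112 in the arrays labelled deleted and 2639 and 2527 in delta. WT and delta did not overlap, and H1093K lay with delta. The difference was 0.26 (95% interval 0.10 to 0.41, limma adjusted p = 0.0461). The calls for Ifit3 and Ifit2 held with each array left out in turn. That for Irgm1 was lost without any 1 array of WT, delta, H1093K or the arrays labelled deleted (limma adjusted p = 0.0674 to 0.203), and that for Ifit1 without any 1 array other than delta replicate 2 (0.0572 to 0.251).

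**Figure D1:**
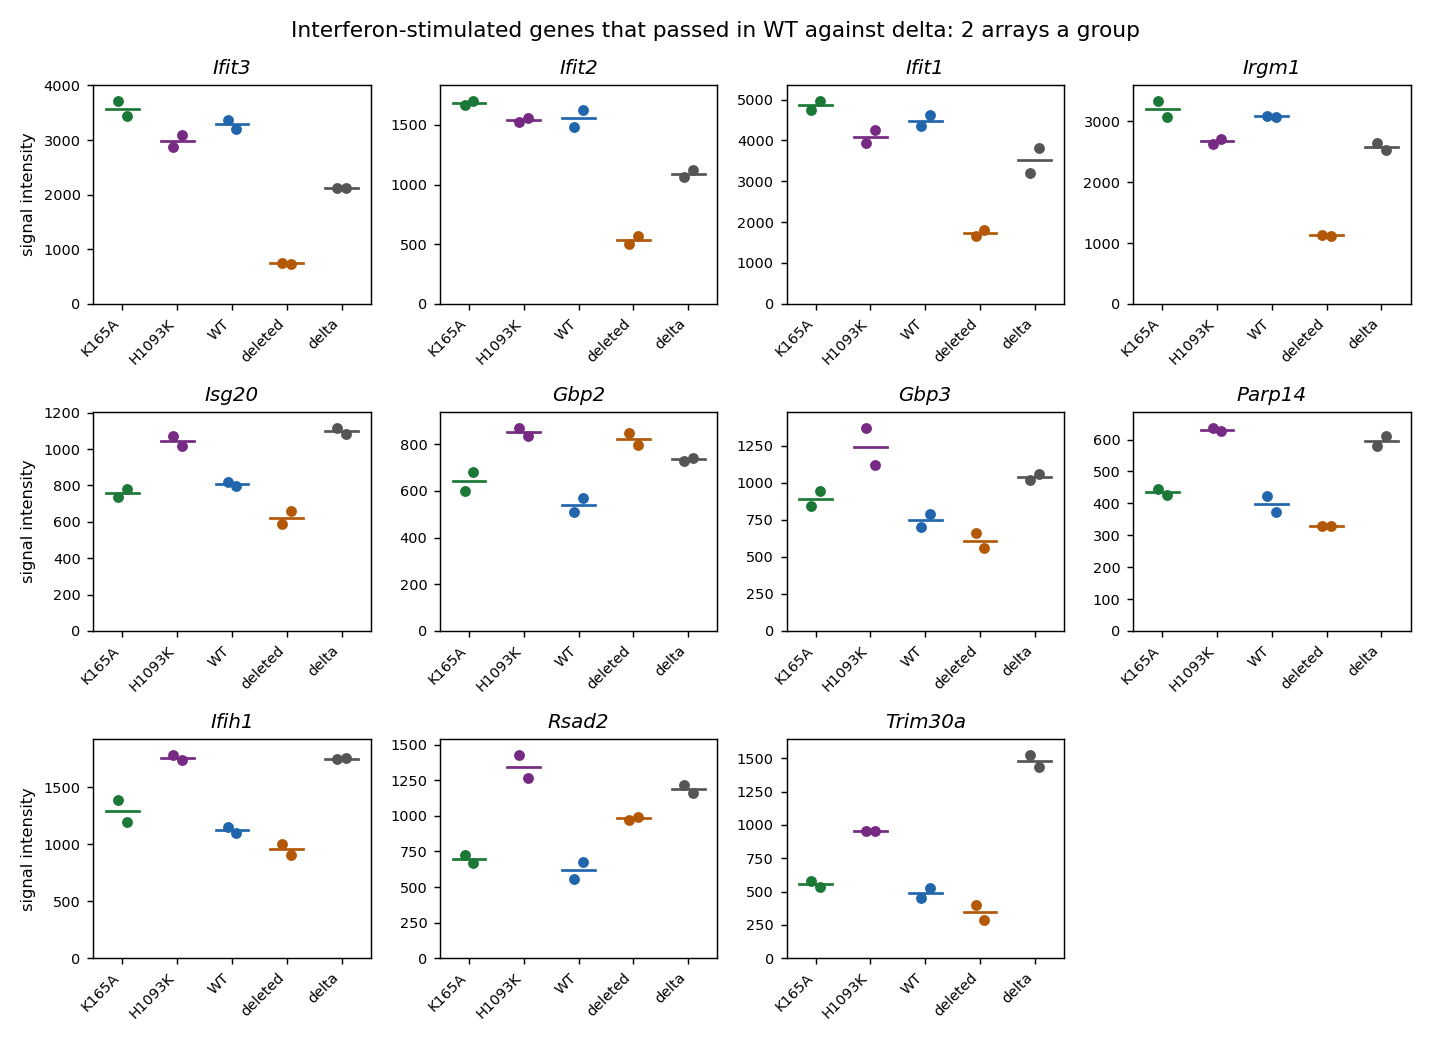
Signal intensity of the 11 interferon-stimulated genes that passed in WT against delta, each panel with its own linear axis from 0, each point an array and each line the mean of 2 arrays. The 3 Ifit genes and Irgm1 were higher in K165A and WT than in delta, with Ifit3 at 3438 and above in K165A and at 2118 and below in delta, while Trim30a was at 576 and below in K165A and at 1436 and above in delta.

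The largest fall was that of Trim30a, a member of the tripartite motif family that in mouse holds back signalling from Toll-like receptors. Its signal was 576 and 531 in K165A, 957 and 957 in H1093K, 451 and 527 in WT, 401 and 289 in the arrays labelled deleted and 1522 and 1436 in delta. The groups were fully apart, with delta highest, H1093K next, and WT and K165A below. In WT it was 2.97-fold lower than in delta, by -1.57 (95% interval -1.88 to -1.26, limma adjusted p = 7.66e-05), and the other tested probe set of the gene gave -1.66. Rsad2 encodes viperin, an enzyme that makes a chain-terminating nucleotide. It had 726 and 667 in K165A, 1425 and 1263 in H1093K, 557 and 676 in WT, 974 and 993 in the arrays labelled deleted and 1216 and 1159 in delta. Both WT and both K165A arrays lay below every array of the other groups. The fall in WT was 1.91-fold, -0.93 (95% interval -1.16 to -0.70, limma adjusted p = 0.000332), and its other 2 probe sets gave -0.54 and -0.74. Ifih1 encodes MDA5, a cytoplasmic sensor of long double-stranded RNA, and had 1392 and 1194 in K165A, 1778 and 1736 in H1093K, 1152 and 1097 in WT, 1002 and 904 in the arrays labelled deleted and 1751 and 1752 in delta. H1093K and delta lay close together, and WT, K165A and the arrays labelled deleted were lower. The difference between WT and delta was -0.63 (95% interval -0.83 to -0.43, limma adjusted p = 0.00143).

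Parp14, an ADP-ribosyltransferase, had 446 and 425 in K165A, 635 and 626 in H1093K, 425 and 373 in WT, 328 and 328 in the arrays labelled deleted and 579 and 611 in delta. Its WT and delta arrays did not overlap, with a difference of -0.56 (95% interval -0.78 to -0.35, limma adjusted p = 0.00474). Isg20, an exonuclease that degrades viral RNA, had 735 and 782 in K165A, 1072 and 1018 in H1093K, 818 and 797 in WT, 585 and 659 in the arrays labelled deleted and 1114 and 1083 in delta. Here too WT lay below delta on both arrays, by -0.44 (95% interval -0.62 to -0.25, limma adjusted p = 0.00828). The guanylate-binding proteins are large GTPases that gather on the vacuoles of intracellular pathogens. Gbp2 had 601 and 681 in K165A, 869 and 835 in H1093K, 511 and 568 in WT, 848 and 797 in the arrays labelled deleted and 729 and 741 in delta, so that WT was lowest and H1093K highest. Gbp3 had 842 and 943 in K165A, 1368 and 1122 in H1093K, 701 and 791 in WT, 659.6 and 559 in the arrays labelled deleted and 1019 and 1057 in delta, with WT below delta and the arrays labelled deleted lower still. Against delta, Gbp2 differed in WT by -0.44 (95% interval -0.64 to -0.23, limma adjusted p = 0.014) and Gbp3 by -0.47 (95% interval -0.74 to -0.20, limma adjusted p = 0.0326). The calls for Trim30a, Rsad2, Ifih1 and Parp14 held with each array left out. That for Gbp3 was lost without any 1 array of WT or delta (limma adjusted p = 0.0685 to 0.192), that for Gbp2 without WT replicate 1 or either delta array (0.057 to 0.104), and that for Isg20 without WT replicate 2 or delta replicate 1 (0.0588 and 0.0519). Markers of cell type moved beside these genes. Of the 4 tested epithelial markers 3 fell, with log2 differences of -2.89 for Krt7, -1.65 for Krt18 and -0.61 for Krt19, while Krt8 differed by 0.05 and did not pass. Of the 10 tested fibroblast markers 5 passed (50%), 2 higher, Pdgfrb (1.05) and Col3a1 (0.89), and 3 lower, among them Thy1 (-0.91) and S100a4 (-0.45). The macrophage marker Cd68 fell (-0.72), the 1 of 4 that passed. The part of any of these in the result was not tested.

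The regulators of the response were among the genes that did not pass between WT and delta. The log2 difference was -0.09 (-0.32 to 0.15) for Stat2, -0.01 (-0.17 to 0.16) for Irf9, -0.26 (-0.51 to -0.01) for Irf7 and -0.05 (-0.48 to 0.37) for Irf1. Dhx58, the sensor LGP2, differed by -0.18 (-0.53 to 0.16), and Eif2ak2, the kinase PKR that halts translation on double-stranded RNA, by -0.02 (-0.24 to 0.20). These intervals leave room for changes of the size seen for Irgm1 in Irf7, Irf1, Stat2 and Dhx58. With the replicate number as a block, 13 of the 36 passed, beside 22.2% of all genes, with Mx2 higher (adjusted p = 0.00919) and Lgals3bp lower (0.0162) as the additions.

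The K165A substitution removes a lysine in the part of G9a that resembles the histone H3 tail, and the comparison asks whether cells given that form differed from cells given the wild type. Against delta, 9 of 36 genes passed in K165A, 4 higher and 5 lower (25%, against 12.7% of all genes, 5.16% higher and 7.5% lower). The comparison uses the same 2 delta arrays as that of WT, and without delta replicate 1 the count was 5. Ifit3 was higher by 0.75 (95% interval 0.59 to 0.92, limma adjusted p = 0.000152), Ifit2 by 0.62 (adjusted p = 0.00135), Ifit1 by 0.47 (adjusted p = 0.0137) and Irgm1 by 0.31 (adjusted p = 0.0217). Trim30a was 2.63-fold lower, a log2 difference of -1.39 (95% interval -1.70 to -1.08, limma adjusted p = 0.000163), and the other falls were -0.76 (adjusted p = 0.00131) for Rsad2, -0.53 (adjusted p = 0.00294) for Isg20, -0.44 (adjusted p = 0.0114) for Ifih1 and -0.44 (adjusted p = 0.0177) for Parp14. Gbp2 and Gbp3 differed from delta by -0.20 and -0.22 and did not pass, although the other probe set of Gbp2 did (-0.40, limma adjusted p = 0.0205). Leaving out 1 array ended the calls of Irgm1 (either delta array or K165A replicate 1, adjusted p = 0.0612 to 0.129), Ifih1 (either delta array or K165A replicate 2, 0.0532 to 0.0771), Ifit1 (delta replicate 1, 0.0936, or K165A replicate 2, 0.0758) and Parp14 (any 1 array of K165A or delta, 0.0546 to 0.107). The replicate block gave 11 genes, beside 21% of all genes, and added Ifi35 (0.0404), higher, and Lgals3bp (0.0362), lower. Of the 4 epithelial markers 3 fell here as well, Krt7 (-2.76), Krt18 (-1.73) and Krt19 (-0.93), and Krt8 did not pass (-0.42). Of the 10 fibroblast markers 2 rose, Pdgfrb (0.99) and Col3a1 (0.92), and 3 fell, among them Thy1 (-0.90) and S100a4 (-0.43). The part of either list in the result was not tested.

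Directly compared, no interferon-stimulated gene passed between K165A and WT. The count was 0 of 36 by limma, beside 0% of all genes tested, and 3 of the 36 had an unadjusted p under 0.05 (Gbp2, Samhd1 and Stat2), as did 214 of the 7738 genes. The replicate block also gave 0. The signals given above show K165A and WT arrays close together for most of these genes. For 5 of the 11 genes that passed in WT against delta, the difference of K165A from WT was 0.18 (-0.13 to 0.49) for Trim30a, 0.18 (-0.05 to 0.41) for Rsad2, 0.19 (-0.00 to 0.39) for Ifih1, 0.12 (-0.04 to 0.29) for Ifit3 and 0.12 (-0.07 to 0.31) for Ifit2, with 95% intervals in brackets. A change of K165A relative to WT as large as that between WT and delta lay outside these intervals for each of the 5. This does not extend to all 11 genes. For Gbp2, which differed by -0.44 in WT against delta, the interval given next reaches 0.44. The 3 genes of smallest p were all higher in K165A, Gbp2 by 0.24 (0.03 to 0.44), Stat2 by 0.31 (0.07 to 0.54) and Samhd1 by 0.21 (0.01 to 0.42), at an adjusted p of 1. Other probe sets gave -0.01 for Gbp2, 0.12 for Stat2 and -0.27 to 0.08 for Samhd1. For Rsad2 they gave -0.13 and -0.04, and for Trim30a 0.31. The sign thus differed between probe sets for Gbp2, Samhd1 and Rsad2. The median difference of the 36 was 0.12.

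**Figure D2:**
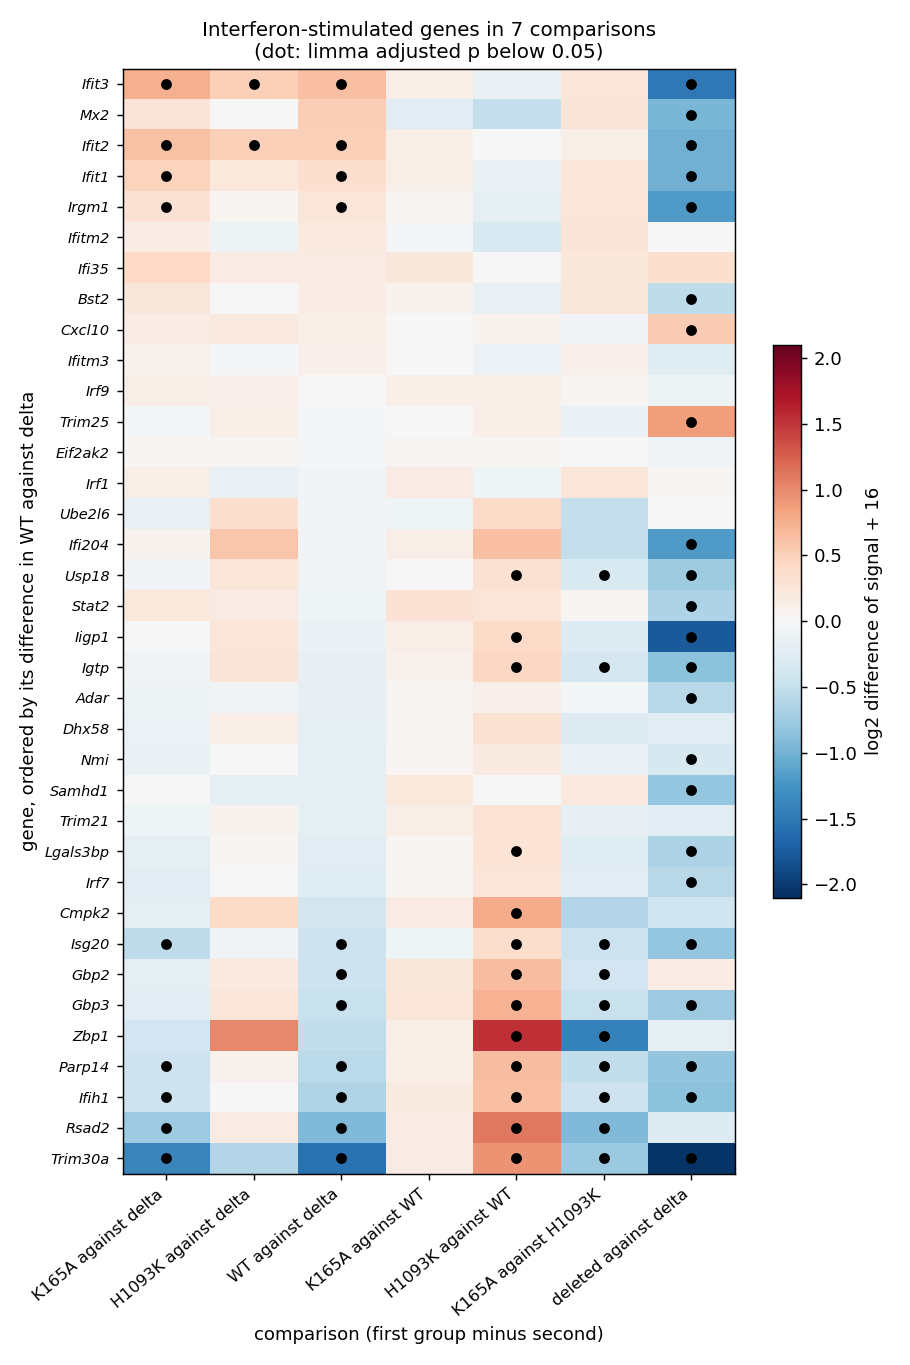
Log2 differences of signal + 16 for the 36 interferon-stimulated genes (down the page, ordered by WT against delta) in 7 comparisons (across), red where the first group was higher and blue where it was lower, with a dot where limma's adjusted p was below 0.05. No gene carries a dot in K165A against WT, and 23 carry one in the arrays labelled deleted against delta, 21 of them blue.

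The H1093K substitution lies in the catalytic domain, and the labels call it a catalytic mutant. Against delta, 2 of 36 genes passed in H1093K and both rose (5.56%, against 0.969% of all genes, 0.504% higher and 0.465% lower). They were Ifit3, by 0.49 (95% interval 0.33 to 0.66, limma adjusted p = 0.0214), and Ifit2, by 0.49 (95% interval 0.30 to 0.68, limma adjusted p = 0.0349). Their signals given above were higher in both H1093K arrays than in both delta arrays. The count of 2 became 0 without any 1 array of H1093K or delta, and 1 without any 1 array of K165A or WT. Ifit3 was lost without any 1 array of H1093K or delta (limma adjusted p = 0.0843 to 0.146), and Ifit2 without any 1 array of K165A, H1093K, WT or delta (0.0566 to 0.185). Trim30a was lower than in delta by -0.62 (-0.93 to -0.31) and Zbp1 higher by 1.01 (0.36 to 1.65), and neither passed (adjusted p = 0.0841 and 0.179). When the replicate number was added as a block, 4 genes passed, beside 3.54% of all genes, with Trim30a (0.0236) and Zbp1 (0.0307) as the additions. Rsad2, Ifih1, Parp14 and Isg20, which fell in WT, differed from delta in H1093K by 0.17 (-0.06 to 0.41), 0.00 (-0.19 to 0.20), 0.08 (-0.13 to 0.30) and -0.07 (-0.26 to 0.11). Gbp2 and Gbp3, which also fell in WT, were above delta in H1093K and did not pass. The difference was 0.21 for Gbp2 (0.34 by its other probe set), and Gbp3 averaged 1245 in H1093K and 1038 in delta.

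Set against WT, the H1093K arrays had 13 of 36 genes higher and none lower, while 23 did not pass (36.1%, against 8.88% of all genes, 4.56% higher and 4.32% lower). The count was 7 and 8 without H1093K replicates 1 and 2, and 5 and 7 without WT replicates 1 and 2. The median difference was 0.25, beside 0.01 over all genes. The comparison uses the same 2 WT arrays as that of WT with delta, so the values are given side by side for the genes described above. Rsad2 was higher in H1093K by 1.11 (95% interval 0.88 to 1.34, limma adjusted p = 0.000123), Trim30a by 0.95 (95% interval 0.64 to 1.26, limma adjusted p = 0.00205), Ifih1 by 0.64 (adjusted p = 0.0015), Gbp2 by 0.64 (adjusted p = 0.00172), Parp14 by 0.64 (adjusted p = 0.00238), Gbp3 by 0.72 (adjusted p = 0.00456) and Isg20 by 0.36 (adjusted p = 0.0246). The genes that rose in WT did not pass here, and the differences were -0.13 (-0.35 to 0.09) for Ifit1, -0.01 (-0.20 to 0.18) for Ifit2, -0.14 (-0.30 to 0.03) for Ifit3 and -0.21 (-0.37 to -0.05) for Irgm1. For Ifit2 and Ifit3 the interval of H1093K against WT did not reach the size of the WT rise over delta with the sign turned.

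The other 6 genes higher in H1093K than in WT had not passed in WT against delta. Zbp1, a sensor of Z-form nucleic acid that can start necroptosis, was dim and had 104 and 56.9 in K165A, 286 and 190.0 in H1093K, 71.8 and 68.9 in WT, 117 and 72.7 in the arrays labelled deleted and 104 and 113 in delta. The 2 H1093K arrays were the highest of the 10 and differed between themselves. It was higher than in WT by 1.53 (95% interval 0.88 to 2.17, limma adjusted p = 0.00965). These 2 arrays brought the gene past the filter, and the limma fit with no filter gave an adjusted p of 0.0251. Without Zbp1 the count was 12 of 35 (34.3%). Cmpk2, a mitochondrial nucleotide kinase, had 187 and 169 in K165A, 329 and 238 in H1093K, 164 and 148 in WT, 171 and 133 in the arrays labelled deleted and 227 and 189 in delta. H1093K was again highest, with its lower array close to the upper delta array, and the difference was 0.79 (95% interval 0.36 to 1.21, limma adjusted p = 0.0318). Igtp and Iigp1 are immunity-related GTPases that act on the vacuoles of parasites. Igtp had 1611 and 1782 in K165A, 2079 and 2269.9 in H1093K, 1489.5 and 1707 in WT, 969 and 993 in the arrays labelled deleted and 1814 and 1773 in delta. Iigp1 had 1609.9 and 1938 in K165A, 2035 and 2213 in H1093K, 1556 and 1652 in WT, 513 and 505 in the arrays labelled deleted and 1712 and 1841 in delta. Both were highest in H1093K and clearly lowest in the arrays labelled deleted. The differences from WT were 0.44 (adjusted p = 0.0132) and 0.40 (adjusted p = 0.0315). Usp18 removes the ubiquitin-like protein ISG15 from its targets and blocks the interferon receptor. It had 3366 and 3417 in K165A, 4076 and 4403 in H1093K, 3517 and 3232 in WT, 2183 and 2053 in the arrays labelled deleted and 3390.1 and 3714 in delta. Lgals3bp, a secreted glycoprotein, had 2092 and 2258 in K165A, 2562 and 2614 in H1093K, 2086 and 2145 in WT, 1542 and 1650.4 in the arrays labelled deleted and 2445 and 2573 in delta, with H1093K next to delta and above WT. They differed from WT by 0.33 (adjusted p = 0.0422) and 0.29 (adjusted p = 0.0416).

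Only Trim30a, Rsad2, Ifih1, Gbp2 and Parp14 of these 13 kept their call with each of the 10 arrays left out in turn. The others were lost without 1 array at least, with limma adjusted p of 0.0537 for Gbp3 (WT replicate 1), 0.0989 and 0.114 for Igtp (H1093K replicate 2 or WT replicate 1), 0.064 to 0.0924 for Zbp1 and 0.112 to 0.232 for Cmpk2 (H1093K replicate 1 or either WT array) and 0.0754 to 0.161 for Isg20 (any 1 array of H1093K or WT). Iigp1 was lost without any 1 array of H1093K, WT or the arrays labelled deleted (0.0505 to 0.192), Lgals3bp without any 1 array outside K165A (0.0558 to 0.195) and Usp18 without any 1 array at all (0.05 to 0.221). Blocking on the replicate number gave 17 genes, beside 15.4% of all genes, with Ifi204 (0.0311) and Trim21 (0.0383) higher and Mx2 (0.0129) and Ifitm2 (0.0374) lower. Ehmt2 itself was lower in H1093K than in WT. Of the 4 epithelial markers 2 were higher, Krt7 (2.34) and Krt18 (1.10), and of the 10 fibroblast markers Thy1 (0.78) and S100a4 (0.41) were higher and Pdgfrb (-0.68) and Col3a1 (-0.55) lower. The part of any of these in the result was not tested.

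**Figure D3:**
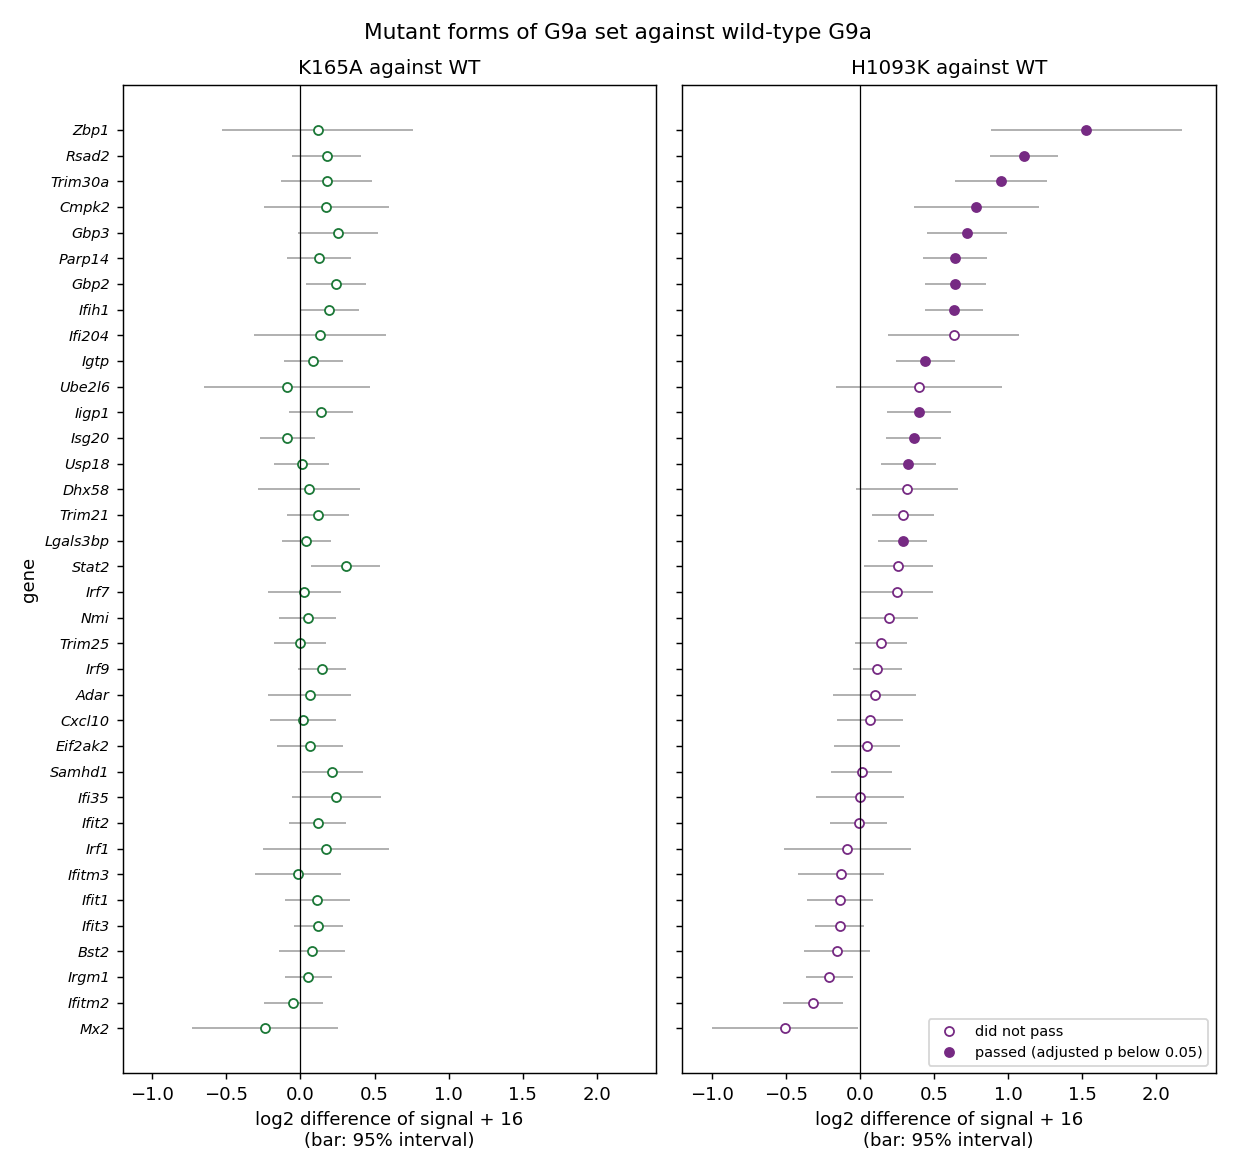
Log2 difference of signal + 16 from WT for each of the 36 interferon-stimulated genes (down the page), with K165A on the left and H1093K on the right, bars as 95% intervals and filled points where limma's adjusted p was below 0.05. No point is filled for K165A, and 13 are filled for H1093K, all to the right of 0, up to 1.53 for Zbp1, which passed the filter on dim signals only through its H1093K arrays.

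K165A and H1093K were also set against each other. Of the 36 genes 10 were lower in K165A, none was higher and 26 did not pass (27.8%, against 8.05% of all genes, 3.64% higher and 4.41% lower). The differences were -1.41 (adjusted p = 0.0152) for Zbp1, -0.93 (adjusted p = 0.000387) for Rsad2, -0.77 (adjusted p = 0.00736) for Trim30a, -0.52 (adjusted p = 0.00893) for Parp14, -0.47 (adjusted p = 0.0439) for Gbp3, -0.45 (adjusted p = 0.00816) for Isg20, -0.44 (adjusted p = 0.0135) for Ifih1, -0.40 (adjusted p = 0.026) for Gbp2, -0.36 (adjusted p = 0.0395) for Igtp and -0.32 (adjusted p = 0.0491) for Usp18, all by limma. Zbp1 passed the filter through its H1093K arrays, and with no filter its adjusted p was 0.0379; without it the count was 9 of 35 (25.7%). For each of the 10 genes both K165A arrays lay below both H1093K arrays in the signals given above. Under the replicate block 17 passed, beside 14.5% of all genes. The additions were Cmpk2 (0.0124), Lgals3bp (0.0194) and Iigp1 (0.0353), lower in K165A, and Ifit1 (0.0459), Ifit3 (0.0314), Irgm1 (0.0233) and Irf1 (0.0358), higher in K165A. The count of 10 became 5 and 3 without K165A replicates 1 and 2, and 1 and 5 without H1093K replicates 1 and 2. Rsad2 alone kept its call with every array left out in turn. The others were lost without 1 array at least, with adjusted p of 0.0508 and 0.0535 for Trim30a (H1093K replicate 1 or K165A replicate 2), 0.0955 and 0.127 for Zbp1 (K165A replicate 2 or H1093K replicate 1), 0.0654 and 0.0717 for Isg20 (K165A replicate 1 or H1093K replicate 1), and 0.0562 to 0.0675 for Parp14 and 0.0634 to 0.0879 for Ifih1 (K165A replicate 2 or either H1093K array). Gbp2 was lost without K165A replicate 1 or either H1093K array (0.0918 to 0.169), Gbp3 without H1093K replicate 1 or any 1 array of K165A, WT or delta (0.0582 to 0.274), Igtp without any 1 array outside WT (0.0549 to 0.223), and Usp18 without any 1 of the 10 (0.0522 to 0.26). Ehmt2 was higher in K165A by 0.57 on the log2 scale. Of the 4 epithelial markers 3 were lower in K165A, Krt7 (-2.21), Krt18 (-1.18) and Krt19 (-0.51), and of the 10 fibroblast markers Thy1 (-0.78) and S100a4 (-0.39) were lower and Pdgfrb (0.61) and Col3a1 (0.58) higher. Their part in the result was not tested.

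Most interferon-stimulated genes were lower in the arrays labelled deleted than in delta. Against delta, 21 of 36 genes were lower, 2 were higher and 13 did not pass (63.9%, against 35.6% of all genes, 18.9% lower and 16.7% higher). The median difference was -0.59, beside -0.01 over all genes, and the group had the lowest mean of the 5 groups for 27 of the 36 genes. Trim30a was 4.19-fold lower, by -2.07 (95% interval -2.38 to -1.76, limma adjusted p = 3.1e-06), and Iigp1 3.41-fold lower, by -1.77 (95% interval -1.99 to -1.56, limma adjusted p = 7.2e-07). The Ifit genes and Irgm1, which were higher in WT, were lower here, Ifit3 by -1.50 (95% interval -1.66 to -1.33, limma adjusted p = 3.87e-07), Ifit2 by -1.01 (adjusted p = 1.4e-05), Ifit1 by -1.0 (adjusted p = 4.15e-05) and Irgm1 by -1.19 (adjusted p = 1.54e-06). Ifih1 (-0.87), Igtp (-0.86), Parp14 (-0.83), Isg20 (-0.81), Gbp3 (-0.76), Usp18 (-0.74) and Lgals3bp (-0.65) were lower too. Rsad2 and Gbp2, both lower in WT than in delta, did not pass here, with differences of -0.27 (-0.50 to -0.04) and 0.16 (-0.05 to 0.36). These arrays also differed in markers of cell type, of which 6 of 10 fibroblast and 3 of 4 epithelial ones passed. Among those that passed, S100a4 was at 1151 and 1255 in the arrays labelled deleted against 6148 and 7178 in delta, Col3a1 at 7468 and 9561 against 2220.5 and 2739, Krt18 at 2108 and 2035 against 583 and 553, Krt8 at 1577 and 1630.4 against 145 and 112, and Krt7 at 83.1 and 113 against 2659.8 and 2557. Postn was at 1683 and 1695 against 47.5 and 91.8 and passed the filter only through the arrays labelled deleted. The part of that difference in the result was not tested.

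A further 10 genes passed in no comparison but this one. Trim25, a ubiquitin ligase that activates the RNA sensor RIG-I, had 773 and 693 in K165A, 818 and 806 in H1093K, 744 and 721 in WT, 1387 and 1377 in the arrays labelled deleted and 727 and 760.3 in delta. Only the arrays labelled deleted stood apart, and they were higher than delta by 0.88 (95% interval 0.71 to 1.06, limma adjusted p = 2.11e-05). Cxcl10, a chemokine that draws T cells, had 637 and 603 in K165A, 646 and 639 in H1093K, 607 and 618 in WT, 892 and 732 in the arrays labelled deleted and 549.7 and 557 in delta, also highest in those arrays. It was higher than in delta by 0.53 (95% interval 0.31 to 0.76, limma adjusted p = 0.00253). Ifi204, a nuclear DNA-binding protein, had 312 and 329 in K165A, 495 and 427 in H1093K, 278 and 305 in WT, 137 and 113 in the arrays labelled deleted and 385 and 239 in delta. Its delta arrays were far apart, yet both lay above the arrays labelled deleted, with a difference of -1.19 (95% interval -1.63 to -0.74, limma adjusted p = 0.00136). Mx2, a dynamin-like GTPase that blocks viruses, had 265 and 349 in K165A, 221 and 283 in H1093K, 307 and 426 in WT, 106 and 138 in the arrays labelled deleted and 219 and 284 in delta. The 2 arrays labelled deleted were the lowest of the 10, and differed from delta by -0.96 (95% interval -1.45 to -0.46, limma adjusted p = 0.00816). The call was lost without delta replicate 2 (0.0609) or deleted replicate 1 (0.0616).

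Samhd1, which destroys the nucleotides that retroviruses need, had 2065 and 2226 in K165A, 2004 and 1731 in H1093K, 1864 and 1826 in WT, 1279.5 and 1145 in the arrays labelled deleted and 2207 and 2068 in delta. It was lower in the arrays labelled deleted than in any other, and its difference from delta was -0.81 (adjusted p = 0.000113). Stat2, a subunit of the ISRE-binding complex, had 662 and 599 in K165A, 643 and 577 in H1093K, 479 and 535 in WT, 323 and 355 in the arrays labelled deleted and 549 and 528 in delta. Adar, an enzyme that edits adenosine in double-stranded RNA, had 616 and 700.2 in K165A, 703 and 648 in H1093K, 628 and 629 in WT, 409 and 531 in the arrays labelled deleted and 681 and 739 in delta. For both genes the arrays labelled deleted were the 2 lowest, and the differences were -0.65 (adjusted p = 0.0011) and -0.59 (adjusted p = 0.00513). Irf7, the transcription factor that amplifies type I interferon production, had 1214 and 1203 in K165A, 1289 and 1543 in H1093K, 1206 and 1165 in WT, 899 and 989 in the arrays labelled deleted and 1296 and 1565 in delta. Bst2, known as tetherin, holds budding virus at the cell surface and had 4018 and 3488 in K165A, 3100.1 and 3252 in H1093K, 3858 and 3248 in WT, 2188 and 2184 in the arrays labelled deleted and 3103 and 3227 in delta. Both were lowest in the arrays labelled deleted, by -0.59 (adjusted p = 0.0027) and -0.53 (adjusted p = 0.0027). Nmi, which binds STAT proteins, had 584 and 583 in K165A, 636 and 661 in H1093K, 539 and 589 in WT, 520.2 and 500.4 in the arrays labelled deleted and 669.8 and 620.4 in delta. It differed from delta by -0.33 (adjusted p = 0.0158), and the call was lost without either array labelled deleted or delta replicate 1 (limma adjusted p = 0.051 to 0.0972). The replicate block gave 27 of 36, beside 46% of all genes, with Cmpk2 (0.0273), Rsad2 (0.045) and Trim21 (0.0329) lower and Ifi35 (0.0484) higher as the additions.

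**Figure D4:**
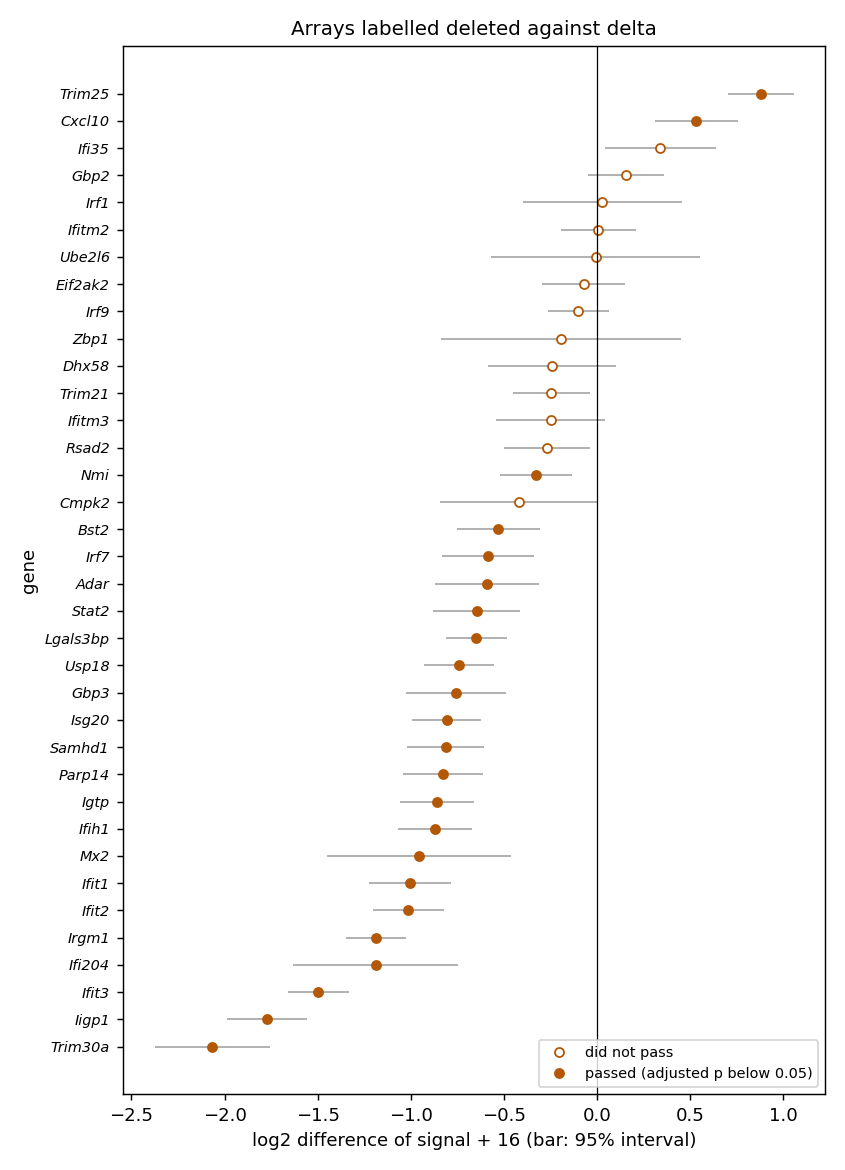
Log2 difference of signal + 16 between the arrays labelled deleted and delta for each of the 36 interferon-stimulated genes (down the page), with bars as 95% intervals and filled points where limma's adjusted p was below 0.05. The differences run from -2.07 for Trim30a to 0.88 for Trim25, and 21 of the 23 filled points lie below 0.

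The remaining 9 tested genes passed in none of the 7 comparisons. Irf9 averaged 1505 in K165A, 1477 in H1093K, 1361 in WT, 1272 in the arrays labelled deleted and 1365 in delta. Irf1 averaged 851 in K165A, 707 in H1093K, 748 in WT, 796 in the arrays labelled deleted and 777 in delta. Both are transcription factors of the response, and neither passed. Ifitm3, a membrane protein that hinders virus entry, averaged 10118 in K165A, 9337 in H1093K, 10239 in WT, 8000.1 in the arrays labelled deleted and 9512 in delta. Its relative Ifitm2 averaged 4733 in K165A, 3930.3 in H1093K, 4894 in WT, 4251 in the arrays labelled deleted and 4226 in delta. H1093K had the lowest Ifitm2 mean, and the arrays labelled deleted the lowest Ifitm3 mean. Eif2ak2 averaged 558 in K165A, 553 in H1093K, 534 in WT, 516 in the arrays labelled deleted and 543 in delta, all within 1 narrow range. Trim21, a cytosolic antibody receptor, averaged 583 in K165A, 659.8 in H1093K, 535 in WT, 523 in the arrays labelled deleted and 623 in delta. The remaining 3 were Dhx58, with group means between 151 and 202, Ifi35, between 560.0 and 752, and Ube2l6, the enzyme that conjugates ISG15, between 133 and 199. Of the 3 genes too dim to test, Ifitm1 averaged 75.8 in K165A, 75 in H1093K, 94.7 in WT, 106 in the arrays labelled deleted and 92.6 in delta. Mx1 averaged 64.5 in K165A, 60.3 in H1093K, 69.8 in WT, 78.4 in the arrays labelled deleted and 44.4 in delta. Sp100 averaged 23.8 in K165A, 29.2 in H1093K, 10.4 in WT, 51.4 in the arrays labelled deleted and 48.9 in delta, and no fold is given, since its WT mean lay below the pseudocount of 16.

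The mean log2 signal of the 36 genes summed up the order of the groups. It was 9.93 and 9.89 in K165A, 10.12 and 10.07 in H1093K, 9.82 and 9.82 in WT, 9.44 and 9.39 in the arrays labelled deleted, and 9.96 and 9.96 in delta. H1093K was highest and the arrays labelled deleted were lowest, while K165A, WT and delta lay between them. By gene, the highest of the 5 group means was found in H1093K for 16 genes, in K165A for 11, in delta for 4, in WT for 3 and in the arrays labelled deleted for 2. Zbp1, which passed the filter only through its H1093K arrays, is part of these means and is among the 16 genes. Genes with several tested probe sets gave the same calls in most cases, which includes pairs in which no probe set passed. Among 9 such genes and 63 pairs of gene and comparison, the calls of the probe sets differed in 4 pairs, and none of these had called differences of opposite sign. The 4 were Gbp2 in K165A against delta, Samhd1 in WT against delta, and Samhd1 and Trim25 in the arrays labelled deleted against delta. Signs differed between probe sets in some pairs, among them Samhd1 in WT against delta (-0.21, beside -0.28 to 0.43 for its other probe sets). Many of these genes belong to families of close copies, and cross-hybridisation between copies was not tested.

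Genes upstream of the response were examined as lists of their own. Of 19 receptor and signalling genes with a probe set 17 were tested. In WT against delta 3 passed (17.6%, against 13.1% of all genes). Jak1, the kinase at both interferon receptors, rose (0.39, adjusted p = 0.0109), as did Socs3, a feedback inhibitor of cytokine signalling (0.94, adjusted p = 0.0191), while Ptpn2, a phosphatase that acts on JAK and STAT proteins, fell (-0.52, adjusted p = 0.00688). In K165A against delta 3 passed (17.6%, against 12.7%): Jak1 rose (0.34, adjusted p = 0.0215), and Ptpn2 (-0.41, adjusted p = 0.022) and the interferon gamma receptor chain Ifngr1 (-0.45, adjusted p = 0.00997) fell. In H1093K against delta none of the 17 passed by limma. Against WT, 3 passed (17.6%, against 8.88%), and H1093K had higher Ifngr1 (0.46, adjusted p = 0.0113) and lower Jak1 (-0.47, adjusted p = 0.00486) and Socs3 (-1.09, adjusted p = 0.0115). In the arrays labelled deleted 3 rose and 3 fell against delta, which is 35.3% of the 17, a share close to the 35.6% of all genes. Among those lower were Ifngr1 (-1.13) and Jak1 (-0.60). Among those higher were the chains of the type I interferon receptor, Ifnar2 (0.53, limma adjusted p = 0.0123) and Ifnar1. Interferon itself was not measured above the filter. Ifnb1, the interferon that fibroblasts make, averaged 60.9 in K165A, 38.2 in H1093K, 60.4 in WT, 41.6 in the arrays labelled deleted and 50.4 in delta, under the filter level of 96.7.

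Of 13 genes that sense nucleic acid or relay that signal 9 were tested. None passed in WT or in H1093K against delta, and Tlr3, a receptor for double-stranded RNA, was the 1 gene that fell in K165A (-0.77, adjusted p = 0.0368), which is 11.1% of the 9, against 12.7% of all genes in either direction. It was higher in H1093K than in WT (0.85, adjusted p = 0.0297) and lower in K165A than in H1093K (-0.99, adjusted p = 0.0151). In the arrays labelled deleted 5 of the 9 fell (55.6%, against 18.9% of all genes), Tlr3 (-1.49) and Tlr4 (-1.30) by the most.

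A second list of 27 tested interferon-stimulated genes, chosen like the first with results of these data known, gave falls in WT and K165A and no rise. In WT 6 of 27 fell against delta (22.2%, against 7.48% of all genes) and in K165A 7 (25.9%, against 7.5%), among them Ifi27l2a, an interferon-induced membrane protein (-1.29, adjusted p = 5.18e-05 in WT), Ifi47, an immunity-related GTPase (-1.16, adjusted p = 0.000638), and Ddx60, a helicase (-0.97, adjusted p = 0.000642). None of the 27 passed in H1093K against delta by limma, and against WT 8 of 27 were higher in H1093K (29.6%, against 4.56% of all genes), with Ifi27l2a at 1.62 (adjusted p = 2.4e-05). Casp4, 1 of the 27, passed the filter narrowly, with a mean log2(signal + 16) of 6.87 over all arrays. That mean was 6.7 without H1093K, 6.8 without delta and 6.81 without K165A, each under the filter level of 6.82. The counts of this list were not repeated without Casp4. In the arrays labelled deleted 16 fell and 1, Ifi30, rose (1.38, adjusted p = 8.51e-06), together 63% of the 27, against 35.6% of all genes. The OAS enzymes and the antigen presentation genes fell as well in WT against delta, 4 of 6 (66.7%) and 6 of 10 (60%), against 7.48% of all genes, with Oas2 at -3.00 (adjusted p = 4.44e-06) and Psmb8 at -1.62 (adjusted p = 9.23e-05). No gene of these 3 lists rose in WT or in K165A against delta by limma, beside the 4 rises among the 36 genes above.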

How the data were processed

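The 10 samples were grouped by title and design text, 2 arrays a group. The deposited signal intensities are linear values that the authors computed with GCOS 1.4, per the submitters' processing notes; background and scaling options are not given in the sources used. Since the trimmed mean (without the outer 2% of probe sets on either side) was about 500.1 on all arrays, no scaling was added.

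The 45 genes, the other lists and the tests were chosen with earlier results of these data known. Of 22690 probe sets, 64 controls were left out, and 20380 of the other 22626 had 1 gene in the platform annotation, with symbols updated through the RefSeq gene table of GRCm38.p6. Where a gene had several probe sets, that of highest mean stood for it. By a fixed rule, values in every array are given for listed genes that passed in at least 1 comparison, and of each other list only the 4 genes of smallest p per comparison may be named with a difference, plus Ehmt2. Ptprc, Epcam and Ifnb1, too dim to test, and Casp4 and Laptm5, close to the filter level, are named for their level alone. Promoter sequences are those of RefSeq for GRCm38.p6.

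Signals were taken as log2(signal + 16), which understates folds of dim genes. Probe sets under the 40th percentile of the mean were dropped, which kept 13575, with 7738 genes. The model in limma 3.58.1 under R 4.3.3 had a mean for each group over all 10 arrays, with trended eBayes moderation, 5 residual and 4.73 prior degrees of freedom, and Benjamini-Hochberg adjustment over the 13575. The number of arrays limits the precision: an exact two-sided permutation test of 2 against 2 cannot go below 0.333, so none is reported. The procedure was tested on simulated data with independently drawn arrays. These lacked the correlation of same-numbered arrays given next, so that test does not cover it. Per the design text there were duplicate independent analyses, and deviations of same-numbered arrays from their group means correlated in all 10 pairs of groups (r = 0.234 to 0.527). The numbers stand in the titles, so they were taken to pair the arrays, and the fit with the replicate number as a block is given where it changes a call. Other alternatives were median centring, quantile normalization, pseudocounts of 4 and 64, no filter or the 60th percentile, only the arrays compared, no arrays labelled deleted, eBayes without trend, the mean of a gene's probe sets, and each array left out in turn.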

Additional observations from a re-analysis of the deposited data

How the results depend on the processing

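Counts of interferon-stimulated genes that passed were 6 to 10 in WT against delta with 1 array left out in turn, 5 to 10 in K165A against delta, 0 to 3 in H1093K against delta, 0 to 0 in K165A against WT, 5 to 12 in H1093K against WT, 1 to 8 in K165A against H1093K and 21 to 25 in deleted against delta. Arrays that moved a count by over 1.5 times are named with each comparison; in H1093K against delta the count was also 3 without either array labelled deleted. Fitting only the 4 arrays compared leaves fewer arrays for the spread and gave 5 in K165A against delta, 0 in H1093K against delta and 5 in K165A against H1093K. In H1093K against delta, no filter gave 1, eBayes without trend 0, the replicate block 4, no arrays labelled deleted 3 and the mean of a gene's probe sets 3; the block gave 17 in K165A against H1093K. The cause of the other shifts was not tested. The replicate block ended no call among these genes, and the calls it added are given with each comparison. Of 720 values of the 68 calls under the alternatives other than leaving out an array, 670 still passed, 50 did not and 0 changed direction; of 680 with 1 array left out, 548 still passed and 132 did not. All 23 calls of the arrays labelled deleted against delta held under the alternatives other than leaving out an array. Ifit1 and Irgm1 in WT against delta, Usp18 and Lgals3bp in H1093K against WT and Usp18 in K165A against H1093K were each lost under 5 of those alternatives. The median difference of all genes shifted by under 0.1 on the log2 scale under each scaling.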
